A study of Rattus norvegicus with 23 samples.

Results

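Newborn rat hearts were compared by the diet of the mother. The 10 hearts of dams on a high fat (HF) diet were set against the 13 hearts of dams on a standard diet, so that all 23 hearts of the series entered, and maternal diabetes was kept as a covariate. The HF dams gave 5 HF diet hearts and 5 combination hearts, named for a mother with both the HF diet and diabetes, and the standard-diet dams gave 7 control and 6 diabetes hearts. All dams were Sprague Dawley rats that had been on their diet for 28 days or longer when they were mated and stayed on it until delivery. On gestational day 14 the mothers of the combination and diabetes hearts received 65 mg/kg streptozotocin, a toxin of pancreatic beta cells, and were then given insulin, while the mothers of the HF diet and control hearts received citrate buffer. The hearts were collected whole from newborns of both sexes on postnatal day 1, with the sex of each not given in the labels, and the RNA of each was read on 1 Affymetrix Rat Gene 1.0 ST array, a chip with probes along the whole transcript.

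Fat in the mother's diet reaches the fetus mainly as fatty acids, which placental lipases free from maternal lipoproteins. The fetal heart runs mainly on glucose and lactate, and after birth it turns to fatty acids, a change that nuclear receptors of the PPAR family and the coactivators of the PGC1 family help to drive. Around birth the cardiomyocytes also leave the cell cycle, the ventricular wall compacts, and the daily clock of the heart begins to settle. Genes of these programs, of growth factor signaling and of the cell types of the heart were followed across the diets.

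A value in the deposited table is a log2 distance from the median of that probe set over the 23 hearts, so a value of 0 is the middle heart and not the absence of a transcript. Differences between hearts can be read from it and the level of a gene cannot, which also means that the label "heart" could not be checked by the level of heart genes. The table holds 29170 probe sets, of which 15310 carry exactly 1 gene symbol. Control heart 1 stood apart with thymus and lung genes at a mean of 2.93 and 2.38, diabetes heart 5 with atrial genes at a mean of -0.93, and combination heart 1 with the widest array, an SD over probe sets of 0.393, against 0.16 to 0.333 in the other hearts. Each heart has a code in its label, and the codes share 19 stems. The 10 hearts of HF dams come from 6 stems, against 13 stems for the 13 hearts of standard-diet dams. Nothing read here tells if a stem stands for a litter, and where hearts share a dam the p-values are too small. Stems of HF dams ran from 11019 to 11030 and those of standard-diet dams from 11001 to 11016, so that anything that followed the order of the codes cannot be told apart from diet. Since whole hearts were read, fewer cells of a type and less RNA per cell cannot be told apart either.

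Hearts of HF and standard-diet dams differed little, and no difference held after adjustment for the number of probe sets. In limma's linear model 71 of 29170 probe sets (0.243%) passed the threshold of the methods, which asks for a log2 difference whose size is over 0.322 and for an unadjusted p under 0.05. Of these, 42 (0.144%) were higher and 29 (0.0994%) lower in hearts of HF dams. After Benjamini-Hochberg adjustment over the table limma called 0, with a lowest adjusted p of 0.984. An unadjusted p under 0.05 was held by 1053 probe sets (3.61%), 698 higher and 355 lower. That share is below the 0.05 that would be reached by chance alone if no probe set differed. The methods' t-test also called 0 after adjustment, with 996 at an unadjusted p under 0.05 and 60 past the threshold. A gene written here as higher or lower therefore passed the unadjusted threshold only, at an adjusted p of 0.984 from limma.

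No probe set separated the diets: for 0 of 29170 (0%) did the 10 hearts of HF dams lie clear of the 13 hearts of standard-diet dams. The median difference over the table was 0.00871 and the median size of a difference 0.0526, against a median standard error of 0.0739. Diet held 4.06% of the variance over the 23 hearts once diabetes was taken into account, diabetes 4.59% once diet was, and their interaction 6.05%. A single degree of freedom of 22 would hold 4.55% if all were equal. Of the 71 probe sets, 35 carry 1 gene symbol (0.229% of the 15310 of that kind), 19 higher and 16 lower. These 35 genes are described here by what their products do.

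Of the 19 genes that were higher in hearts of HF dams, 5 encode secreted or shed factors of the myocardium and its matrix. Bmp10, a growth factor of the trabecular and atrial myocardium, lay between -0.64 and 1.31 in hearts of HF dams with a median of 0.38, against -3.67 to 0.70 with a median of -0.45 in hearts of standard-diet dams. All but 1 heart of HF dams lay above the median of the other diet, yet the groups overlapped. The adjusted difference was 0.85 (standard error 0.37, exact permutation p = 0.0295, two-sided, 10 and 13 hearts). Diabetes heart 5, whose atrial genes had a low mean of -0.93, held the lowest Bmp10 value, and without it the difference was 0.57. Without the 3 hearts that stood apart the difference was 0.52 and no longer past the threshold (limma, unadjusted p = 0.0647).

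Hbegf, a membrane-bound ligand of the epidermal growth factor receptors that is shed in the heart, lay between -0.22 and 1.52 in hearts of HF dams (median 0.10) and between -0.72 and 0.53 in hearts of standard-diet dams (median -0.18). The difference was 0.52 (standard error 0.18, exact permutation p = 0.0123), with 3 hearts of HF dams above every heart of standard-diet dams. Ccn2, a matricellular protein formerly called connective tissue growth factor, differed by 0.46 and Chrdl1, an antagonist of bone morphogenetic proteins, by 0.54, with exact permutation p-values of 0.0466 and 0.0498. Hapln1, which links hyaluronan to proteoglycans in the cardiac jelly, was higher by 0.38 (exact permutation p = 0.012). Of these 5 genes Hbegf alone stayed past the threshold with each heart left out in turn; Hapln1 was short of it without diabetes heart 6 (0.31), Bmp10 without combination hearts 2 or 3, Ccn2 without any of 6 hearts and Chrdl1 without any of 9.

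Membrane proteins were called in both directions. Tnfrsf12a, the receptor of the cytokine TWEAK, lay between -0.12 and 0.99 in hearts of HF dams (median 0.38) and between -0.48 and 0.42 in hearts of standard-diet dams (median -0.08). Of the 10 hearts of HF dams 5 lay above every heart of standard-diet dams, and the difference was 0.43 (standard error 0.13, exact permutation p = 0.00494). Ramp3, a partner of the adrenomedullin receptor, was higher by 0.38 (exact permutation p = 0.065) and Pcdh18, a protocadherin of cell adhesion, by 0.36 (exact permutation p = 0.00443). On the other side Adra1b, the alpha-1B adrenergic receptor, was lower at -0.45 and Gpr22, an orphan receptor expressed in myocardium, at -0.49, with exact permutation p-values of 0.0283 and 0.0438. Slco2b1, a carrier of organic anions, was lower at -0.33 and passed the threshold in 9 of 23 fits with 1 heart left out.

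Among genes of signaling inside the cell, the largest shift toward higher values was that of Rnd1, a GTPase that loosens actin fibers and answers to semaphorin receptors. Its values ran from -0.44 to 1.45 in hearts of HF dams (median 0.35) and from -0.53 to 0.38 in hearts of standard-diet dams (median -0.09), a difference of 0.58 (standard error 0.18, exact permutation p = 0.00778). Rcan1, an inhibitor of calcineurin that is itself induced by calcineurin, ran from -0.13 to 0.42 (median 0.16) in hearts of HF dams and from -0.66 to 0.16 (median -0.11) in hearts of standard-diet dams. Rcan1 was thus higher by 0.34 (standard error 0.09, exact permutation p = 0.0017), with 5 of 10 hearts above every heart of standard-diet dams. It sat close to the fold threshold, and fell short of it without any of 4 hearts. Without the 3 hearts that stood apart Rcan1 did not pass either.

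**Figure D1:**
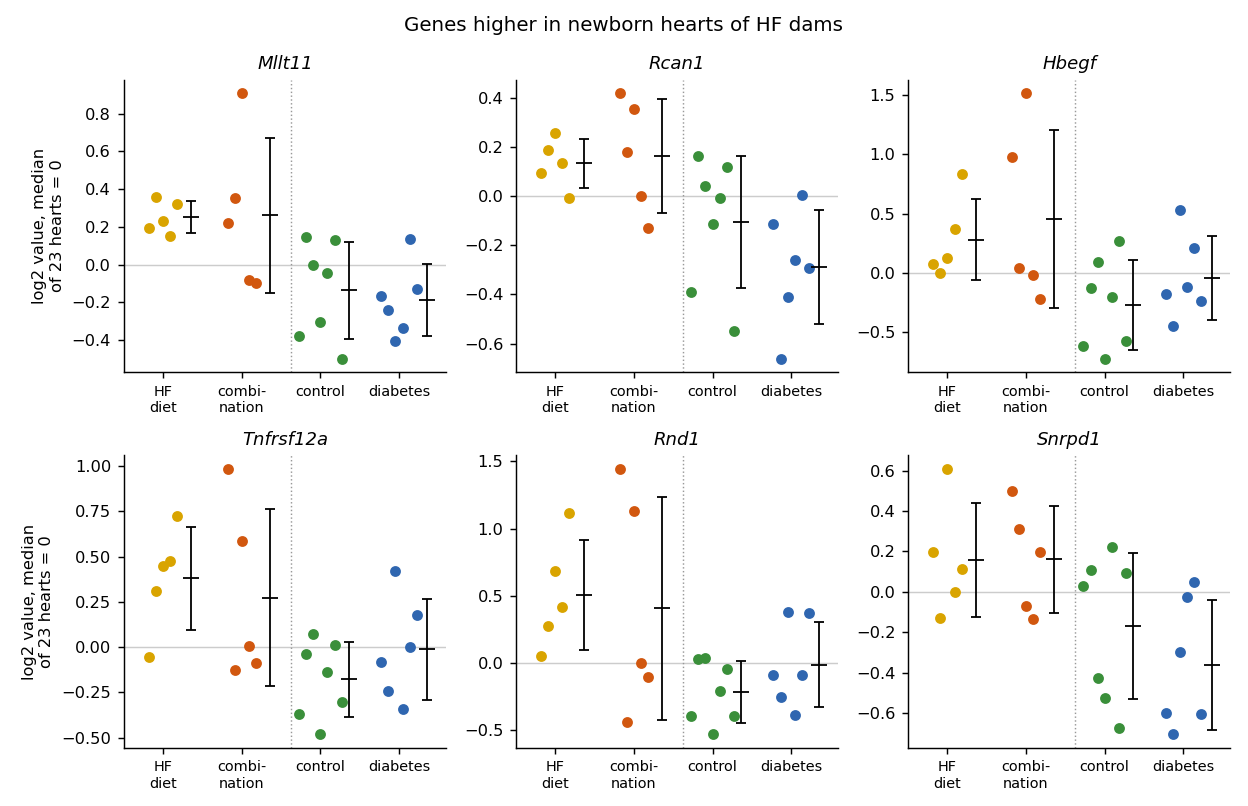
Values of Mllt11, Rcan1, Hbegf, Tnfrsf12a, Rnd1 and Snrpd1 in each heart (log2, median of 23 hearts at 0) in HF diet, combination, control and diabetes hearts; points are hearts, and the tick and bar at the right of each group are its mean and SD. For each gene the HF diet and combination hearts reach above the control and diabetes hearts, and the diets overlap.

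Dtx4, a ubiquitin ligase of the Notch pathway, had the smallest p of the whole table. It lay between -0.63 and 0.05 in hearts of HF dams (median -0.16) and between -0.08 and 0.53 in hearts of standard-diet dams (median 0.10). The 10 hearts of HF dams all lay below the median of the standard-diet hearts and 7 of them below every standard-diet heart. The difference was -0.36 (standard error 0.08, limma unadjusted p = 0.000182, exact permutation p = 7.38e-05). Without the 3 hearts that stood apart, one of which held the highest Dtx4 value, it was short of the threshold.

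Other lower genes act on cell survival, growth and protein breakdown. Bcl2l11, which encodes the pro-apoptotic protein BIM, ran from -0.52 to 0.20 in hearts of HF dams (median -0.11) and from -0.25 to 0.72 in hearts of standard-diet dams (median 0.24), a difference of -0.38 (standard error 0.12, exact permutation p = 0.00913). Pik3ip1, a membrane protein that holds back phosphatidylinositol 3-kinase, ran from -0.78 to 0.23 (median -0.18) in hearts of HF dams and from -0.58 to 0.96 (median 0.29) in hearts of standard-diet dams. Its difference was -0.45 (standard error 0.15, exact permutation p = 0.013), and all 10 hearts of HF dams lay below the standard-diet median. Fbxo32, the muscle ubiquitin ligase also called atrogin-1, was lower at -0.39 (exact permutation p = 0.0192) and Tob2, an antiproliferative protein, at -0.38 (exact permutation p = 0.0142).

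The daily clock was 1 of 2 lists with 2 genes past the threshold, the most of any list. The lists differ in size and were chosen with earlier results of these data known, so this rank is a description only. Of the 15 measured clock genes 2 were lower and 0 higher, with a median difference of -0.12. Over all 14506 genes with 1 symbol 16 were lower and 19 higher, and the median was 0.00738. Both lower clock genes encode the REV-ERB receptors, which repress the clock's activators. Nr1d2 ran from -0.62 to 0.22 in hearts of HF dams (median -0.28) and from -0.80 to 0.87 in hearts of standard-diet dams (median 0.35), a difference of -0.44 (standard error 0.16, exact permutation p = 0.0198). All 10 hearts of HF dams lay below the standard-diet median, and 8 of 13 standard-diet hearts lay above every heart of HF dams. Nr1d1 ran from -0.82 to 1.01 in hearts of HF dams (median -0.35) and from -0.71 to 1.04 in hearts of standard-diet dams (median 0.16), a difference of -0.39 (standard error 0.18, exact permutation p = 0.0599). Nr1d1 passed the threshold in 10 of 23 fits with 1 heart left out and Nr1d2 in all 23, but with hearts of 1 code stem averaged neither did, at -0.29 and -0.41.

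Dbp, a clock output factor, had a difference of -0.32 (limma, unadjusted p = 0.0492) and lay just short of the fold threshold, so that it was not called. Without the 3 hearts that stood apart 3 genes of the list were lower, and the list's median was -0.08. Bhlhe41, a repressor of the clock, was at -0.25 and did not pass. Outside the rule for naming genes and chosen after their values were seen, Per3 was at -0.43, Per1 at -0.31, Tef at -0.24, Bmal1 at 0.09 and Clock at 0.06, none past the threshold. In the whole list 5 of 15 genes were positive (33.3%), against 54.1% of all genes with 1 symbol. The remaining members of the list are not given, so the named genes do not stand for it. The paper gives a typical age at harvest, in hours after birth, but not the age of each heart. The hour of the day at which each heart was taken is not known here. The part of either in these values was not tested.

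**Figure D2:**
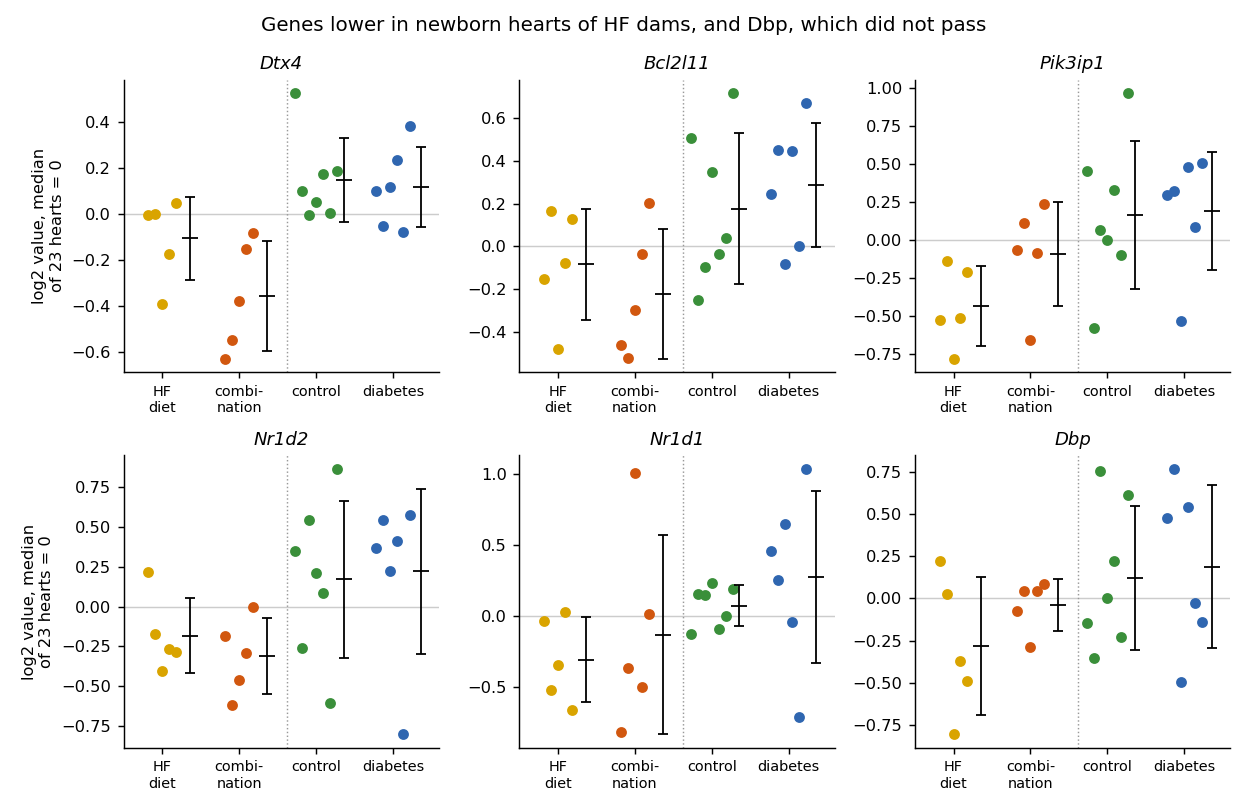
Values of Dtx4, Bcl2l11, Pik3ip1, Nr1d2, Nr1d1 and Dbp in each heart (log2, median of 23 hearts at 0) in HF diet, combination, control and diabetes hearts; points are hearts, and the tick and bar at the right of each group are its mean and SD. The HF diet and combination hearts of Dtx4 lie mostly below 0, and 1 combination heart reaches 1.01 for Nr1d1.

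Promoter sequence is shown for the 2 REV-ERB genes, since they are the called pair of the clock list, and for Rcan1, the only called gene whose window holds the cyclic AMP element. Each window runs from 250 bases before to 50 bases after a start site, 5′ to 3′ on the strand of the gene, from RefSeq with the GRCr8 build. Capitals mark the motifs, searched on both strands. Nr1d1 is at chr10:84229405-84229704 (minus strand), Nr1d2 at chr15:9954784-9955083 (plus strand) and Rcan1 at chr11:45118187-45118486 (minus strand).
Nr1d1: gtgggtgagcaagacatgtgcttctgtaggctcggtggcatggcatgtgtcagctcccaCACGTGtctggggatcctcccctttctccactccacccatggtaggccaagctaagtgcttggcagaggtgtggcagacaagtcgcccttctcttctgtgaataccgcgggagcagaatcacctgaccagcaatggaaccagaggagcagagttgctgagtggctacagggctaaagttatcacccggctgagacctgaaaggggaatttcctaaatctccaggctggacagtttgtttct
Nr1d2: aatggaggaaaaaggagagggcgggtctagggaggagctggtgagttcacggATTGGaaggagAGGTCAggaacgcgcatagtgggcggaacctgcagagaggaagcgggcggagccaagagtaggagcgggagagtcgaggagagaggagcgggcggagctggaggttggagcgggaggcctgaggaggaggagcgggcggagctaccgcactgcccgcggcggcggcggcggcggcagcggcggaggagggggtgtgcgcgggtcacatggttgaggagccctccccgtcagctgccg
Rcan1: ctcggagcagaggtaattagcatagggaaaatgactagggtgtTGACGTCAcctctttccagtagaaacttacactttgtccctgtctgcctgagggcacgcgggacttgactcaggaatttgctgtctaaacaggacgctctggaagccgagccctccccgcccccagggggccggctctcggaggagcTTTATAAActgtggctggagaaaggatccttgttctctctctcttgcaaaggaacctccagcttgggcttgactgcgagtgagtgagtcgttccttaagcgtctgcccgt
The Nr1d1 window holds CACGTG, the E-box that the clock's activators bind, at position -191 from the start. The Nr1d2 window holds AGGTCA, a site of nuclear receptors, and CCAAT on the other strand (read here as ATTGG). The Rcan1 window holds TGACGTCA, the cyclic AMP element, and TATAAA once on each strand, the pair overlapping. A second RefSeq window of Nr1d1 holds CCAAT and no CACGTG.

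Over the 30 called genes with a promoter in the table, CACGTG stood in 2 (Nr1d1 and Atosa, both lower), against 6.42% of all 33469 promoters. AGGTCA stood in 5 of 30 (16.2% of all promoters), TGACGTCA in 1 (1.83%), TATAAA in 6 (14.2%) and CCAAT in 13 (37.5%). A called gene counts here if any of its windows holds the motif, and Nr1d1, Dtx4 and Thumpd3 have more than 1 window. The shares of all promoters are of single windows, so the units differ. These letters describe the windows and do not show that a factor is bound there.

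Of the 16 lower genes, 4 belong to immune defense and the regenerating islet family. Reg3b, a secreted lectin of the regenerating islet family, ran from -0.80 to 0.38 in hearts of HF dams (median -0.36) and from -0.35 to 2.46 in hearts of standard-diet dams (median 0.39), a difference of -0.68 (standard error 0.25, exact permutation p = 0.00977). All 10 hearts of HF dams lay below the standard-diet median and 5 below every standard-diet heart. Its relative Reg1a was at -0.42 (exact permutation p = 0.0527) and passed the threshold in 13 of 23 fits with 1 heart left out. Serping1, the inhibitor of complement C1, was lower at -0.35 (exact permutation p = 0.0165), with HF diet heart 3 far below the rest at -1.33, and without that heart the difference was -0.22. RT1-T24-4, of the class I histocompatibility family, was lower at -0.47 (exact permutation p = 0.0104), though probes of this multigene family may read several of its near-identical members. The cytokine list as a whole had 1 lower gene of 24, which was Reg3b, and a median of -0.03. Over all 14506 genes with 1 symbol 16 were lower and the median was 0.00738.

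The rest of the called genes have no role in common. Mllt11, first known as a fusion partner in leukemia, ran from -0.10 to 0.91 in hearts of HF dams (median 0.23) and from -0.50 to 0.15 in hearts of standard-diet dams (median -0.16). In this gene 8 of 10 hearts of HF dams lay above every standard-diet heart, and the difference was 0.42 (standard error 0.10, limma unadjusted p = 0.000434, exact permutation p = 0.000445). Snrpd1, a core protein of the spliceosome, ran from -0.13 to 0.61 (median 0.15) in hearts of HF dams and from -0.71 to 0.22 (median -0.30) in hearts of standard-diet dams, a difference of 0.42 (standard error 0.12, exact permutation p = 0.00521). Both stayed past the threshold in all 23 fits with 1 heart left out.

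Bex4, an X-linked gene of the brain-expressed family, was higher by 0.56 (exact permutation p = 0.0192), and all 10 hearts of HF dams lay above the standard-diet median. Hspb3, a small heat shock protein of muscle, was higher by 0.37, the melanosome gene Mlana by 0.33 and Pbk, a kinase of mitosis, by 0.38, with exact permutation p-values of 0.0147, 0.0012 and 0.0681. Mlana sat close to the fold threshold and passed in 14 of 23 fits with 1 heart left out. It did not pass without the 3 hearts that stood apart. Uros, an enzyme of heme synthesis, was higher by 0.36 (exact permutation p = 0.0567). It no longer passed once the erythroid mean was added to the model. That mean includes Uros itself, so this fit lowers the difference by its make-up and cannot tell where it comes from. Thumpd3 and Tstd3 were higher by 0.34 and 0.33. Among lower genes Atosa was at -0.42 and C14h7orf57 at -0.36, with exact permutation p-values of 0.0287 and 0.0642. With 1 heart left out Atosa passed in 23 of 23 fits and C14h7orf57 in 11. Thumpd3, Tstd3 and Slco2b1 lay outside the rule for naming genes and are given to complete the 35.

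The diet difference was measured separately in dams without and with diabetes, in a pair of comparisons that share no heart. In HF diet against control hearts 275 probe sets passed the threshold (0.943%), 200 higher and 75 lower. In combination against diabetes hearts 886 passed (3.04%), 486 higher and 400 lower. These counts moved with the hearts and the test: the first was 158 in the methods' t-test, 152 without HF diet heart 3 and 450 without HF diet heart 2, and the second 288 in the methods' t-test, 277 without combination heart 1 and 2143 without diabetes heart 5. In the full counts the comparisons had 13 probe sets in common, which is 4.73% of the first list and 1.47% of the second, and only 2 of the 13 went the same way. One was Mllt11, higher by 0.39 in HF diet than control hearts and by 0.45 in combination than diabetes hearts. The other, probe set 10827830, has no gene symbol here and was lower at -0.53 and at -0.44.

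The other 11 probe sets went opposite ways. Eln, which encodes the elastic fiber protein elastin, was higher by 0.52 in HF diet than control hearts and lower at -0.46 in combination than diabetes hearts. Ntrk3, the receptor of neurotrophin 3, was higher by 0.37 and lower at -0.34 in the same comparisons. Across all 29170 probe sets the 2 differences had the same sign in 43.6%, and their Pearson correlation was -0.20. Probe sets are not independent replicates, and this is given as a description. The test of the interaction of diet with diabetes called 0 probe sets, with a lowest adjusted p of 0.358 from limma.

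All 71 called probe sets had the same sign in both comparisons, which the choice by the joint difference favors. Of these, 27 also passed the threshold in HF diet against control hearts, 30 in combination against diabetes hearts and 55 in at least 1 of the 2. Hbegf stood at 0.55 in HF diet minus control and at 0.50 in combination minus diabetes, Adra1b at -0.41 and -0.49, Nr1d2 at -0.35 and -0.53 and Rnd1 at 0.72 and 0.42. Other genes were further apart: Bmp10 stood at 0.32 in HF diet minus control and at 1.42 in combination minus diabetes, Ramp3 at 0.09 and 0.68, and Reg3b at -0.99 and -0.35. For these 7 genes the test of the difference had an unadjusted p between 0.0868 (Ramp3) and 0.892 (Hbegf). Tstd3, at 0.04 and 0.64, was the only called gene whose test of the difference had an unadjusted p under 0.05 (0.0395, adjusted p = 0.672, limma).

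**Figure D3:**
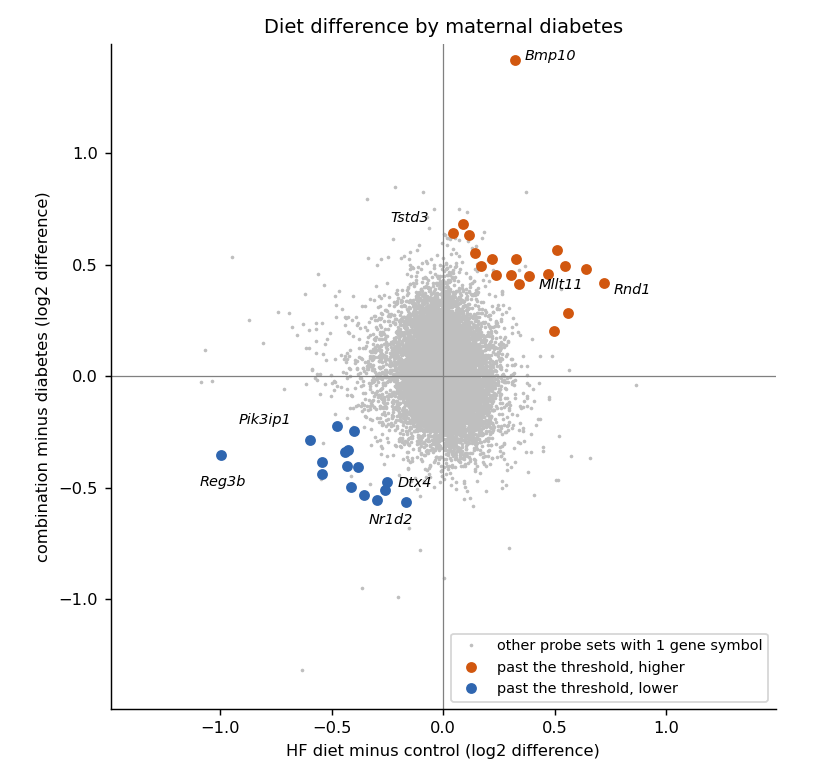
Log2 difference of each probe set with 1 gene symbol in HF diet minus control hearts (horizontal) and in combination minus diabetes hearts (vertical), with the 19 higher and 16 lower genes of the joint comparison in color. The called genes lie in the quadrants where both differences have the same sign, as the joint comparison favors, and Bmp10 stands highest at 1.42.

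Genes that handle fat did not pass the threshold in any list. Over all 14506 genes with 1 symbol only 19 were higher and 16 lower, so a count of 0 in a short list says little. None of 28 genes of fatty acid oxidation was past the threshold, and their median difference was -0.04. By maternal diabetes their median was -0.115 in HF diet minus control and 0.0569 in combination minus diabetes. Cpt1a, the mitochondrial entry step of long-chain fatty acids, was at -0.25 (limma, unadjusted p = 0.133). The PPAR family and its targets had a median of -0.10 over 21 genes, 4 of them positive and 0 past the threshold. Their median was -0.117 in HF diet minus control and -0.0782 in combination minus diabetes. Rxra, the partner receptor of the PPARs, was at -0.20 (unadjusted p = 0.0172), and Ucp3, a mitochondrial carrier, at -0.19 (unadjusted p = 0.0502). Lipid uptake, storage and lipolysis had a median of -0.06 over 26 genes, at -0.111 in HF diet minus control and 0.0594 in combination minus diabetes. Sterol and fatty acid synthesis had 0.05 over 29 genes, at -0.000829 and 0.0829 in the same comparisons. Cholesterol efflux and LXR targets had -0.04 over 14 genes, at -0.0592 and -0.0316. Each of these lists had 0 past the threshold.

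Glucose handling also had 0 of 27 genes past the threshold, with a median of 0.06. The glycolytic enzymes Pgk1 (0.21), Pfkp (0.17), Ldha (0.16) and Tpi1 (0.14) had an unadjusted p under 0.05, all toward higher values. Over all 14506 genes with 1 symbol 316 toward higher and 202 toward lower values had such a p. Each gene is given by its probe set with the smallest p. The 27 genes had 48 probe sets and the 14506 genes had 15310, so the list had more chances per gene. Insulin, IGF, FGF and PI3K/AKT signaling had 0 of 38 past the threshold and a median of -0.05, with medians of 0.02 in HF diet minus control and -0.14 in combination minus diabetes. In that list Fgf7 was at -0.23 and Irs1, an adaptor of the insulin receptor, at -0.20. For the breakdown of ketone bodies and branched-chain amino acids 0 of 17 genes passed, and Oxct1, which activates ketone bodies for fuel, was at 0.14 (unadjusted p = 0.0136).

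The mitochondrial ribosome and complex I lists had 0 genes past the threshold, and their medians differed in sign between dams without and with diabetes. So did the medians of other lists, among them fatty acid oxidation and lipid uptake. For complexes II to V they were -0.0231 in HF diet minus control and 0.0891 in combination minus diabetes. Of 68 mitochondrial ribosome genes 67 had a positive difference and the median was 0.11, against 54.1% positive and 0.00738 over all genes with 1 symbol. Among them Mrpl19 was at 0.27, Mrpl47 at 0.19 and Dap3 at 0.19. By maternal diabetes the median stood at -0.04 in HF diet minus control and 0.27 in combination minus diabetes. Complex I had 31 of 32 genes positive, a median of 0.06, and medians of -0.03 in HF diet minus control and 0.19 in combination minus diabetes. Combination heart 1 held the highest mean of the mitochondrial ribosome list, 0.661, and the lowest of a list of chromatin regulators with long transcripts, -0.73. Without that heart the mitochondrial ribosome median was 0.05 with 61 of 68 positive, and the complex I median 0.02.

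The chromatin regulators were listed as a possible sign of RNA quality, because their transcripts are long. They were not checked against a measure of quality, and the paper used only samples above a limit of RNA integrity. Of their 21 genes 0 were past the threshold and 0 positive. Their median was -0.12, at 0.05 in HF diet minus control and -0.29 in combination minus diabetes. Without combination heart 1 their median was -0.05, with 2 of 21 positive. Their means ran from -0.73 to 0.21 in hearts of HF dams and from -0.34 to 0.29 in hearts of standard-diet dams. Their part in the mitochondrial values was not tested. The PGC1 family and genes of mitochondrial biogenesis had 0 of 17 past the threshold, 10 of 17 positive and a median of 0.03.

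Heart muscle genes showed few differences. Over all 14506 genes with 1 symbol 19 were higher and 16 lower, 54.1% had a positive difference and the median was 0.00738. In the list of hypertrophy and myocyte stress 2 of 16 genes were higher, Rcan1 and Ccn2, and 0 lower, with a median of 0.08 and 10 of 16 positive, and without the 3 hearts that stood apart 1 gene of the list was higher. Nppb, the brain natriuretic peptide, was at 0.28 (unadjusted p = 0.0135) and Xirp2, a protein of the intercalated disc, at 0.24 (unadjusted p = 0.038), both under the fold threshold. Sarcomere genes and fetal isoforms had 0 of 21 past the threshold and a median of -0.00121, and genes of calcium cycling and ion channels 0 of 26 and -0.04. Immediate early genes had 1 higher gene of 24, again Ccn2, and a median of 0.12, with 21 of 24 positive. Cell cycle genes had 0 of 37 past the threshold, a median of 0.09 and 33 of 37 positive. In that list Cdk1, the kinase of mitotic entry, was at 0.30 (unadjusted p = 0.0164).

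**Figure D4:**
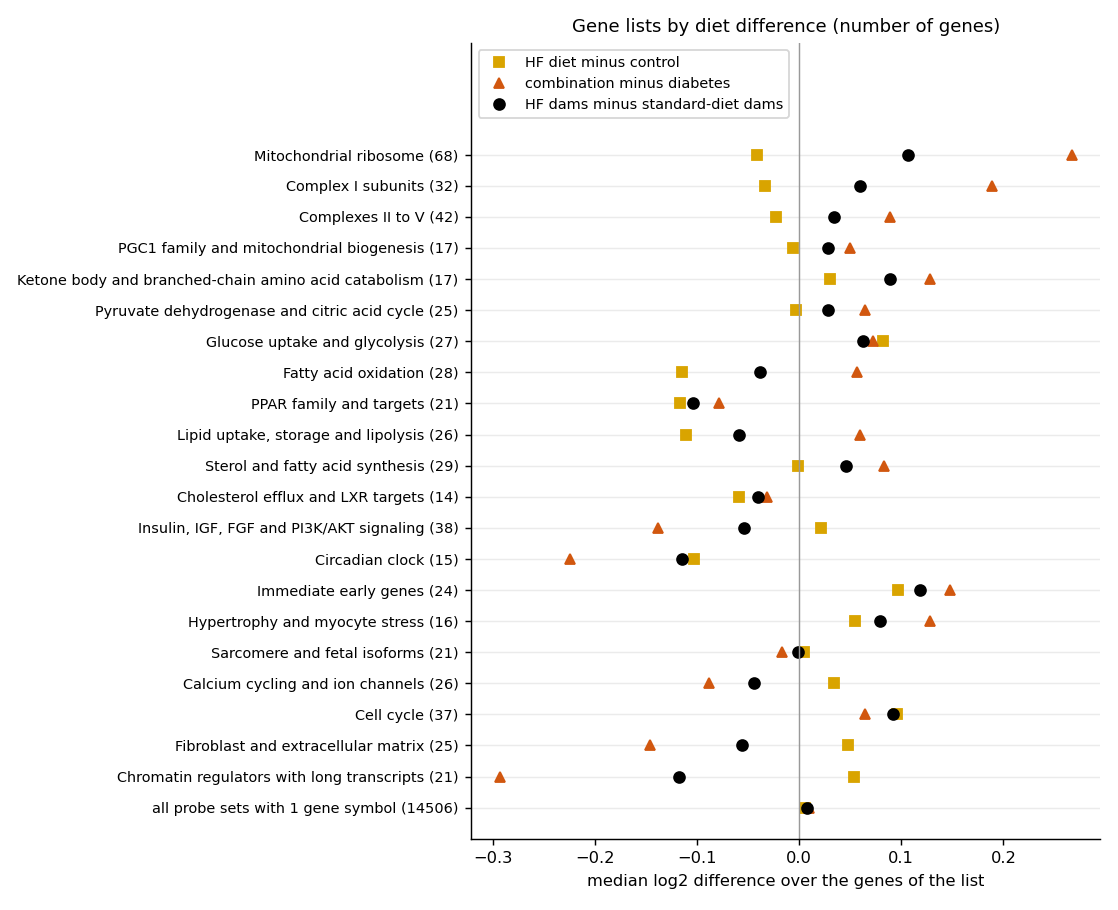
Median log2 difference over the genes of 21 lists and over all genes with 1 symbol, with the number of genes in brackets, for HF dams minus standard-diet dams (circles), HF diet minus control (squares) and combination minus diabetes (triangles). The mitochondrial ribosome median is 0.107 over all hearts, -0.0411 in the squares and 0.267 in the triangles.

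Markers of other cell types had few or no genes past the threshold. Lists of fibroblasts and matrix (25 genes), endothelium (23), smooth muscle (12), macrophages (22), granulocytes (13), epicardium (10), atrium (12) and ventricle (9) had 0 each, with medians between -0.06 and 0.05. Vcam1, an adhesion molecule of endothelium, was at 0.32 (unadjusted p = 0.00571) and just under the fold threshold. Erythroid genes had 1 higher gene of 23, Uros, and a median of 0.04, with means from -0.23 to 0.94 in hearts of HF dams and from -0.49 to 0.53 in hearts of standard-diet dams. The nerve list had 1 of 16, Mllt11, and the axon guidance list 1 of 56, Rnd1. Over all 14506 genes with 1 symbol only 19 were higher and 16 lower. At so low a share a count of 0 in a short list says little.

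Tissue from outside the heart wall was uneven between hearts. Thymus genes ran from -0.07 to 0.24 in hearts of HF dams and from -0.13 to 2.93 in hearts of standard-diet dams, and lung genes from -0.21 to 0.93 and from -0.17 to 2.38, with control heart 1 at the top of both. For lung genes HF diet heart 4 at 0.93 and diabetes heart 3 at 0.72 also lay above the remaining hearts, which reached 0.17 at most, and these 2 were left out only in turn and not with the 3 hearts. Their list medians were -0.19 and -0.17, and 0.05 and 0.04 without the 3 hearts that stood apart. Adipose genes ran from -0.28 to 0.32 in hearts of HF dams and from -0.28 to 0.57 in hearts of standard-diet dams, with a median of -0.16 over 11 genes and 0 past the threshold. Adipoq, a hormone of fat cells, was at -0.65 (unadjusted p = 0.0598). The part of such tissue in the 35 genes was not tested beyond leaving hearts out.

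Which genes were called depended on single hearts. With each heart left out in turn the count of probe sets ran from 61 to 165, and it passed 1.5 times the full count without HF diet hearts 1 (165) or 2 (112), combination hearts 4 (140) or 5 (135), control heart 5 (113) or diabetes hearts 3 (162) or 5 (137). Without the 3 hearts that stood apart 64 probe sets passed, 36 of them among the 71, and 19 of the 35 genes kept their call. Under each of 23 hearts left out and 14 other settings 7 genes stayed past the threshold, namely Hbegf, Mllt11, Rnd1, Snrpd1 and Tnfrsf12a, which were higher, and Pik3ip1 and RT1-T24-4, which were lower. With each heart left out in turn alone, 15 of the 35 did.

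**Figure D5:**
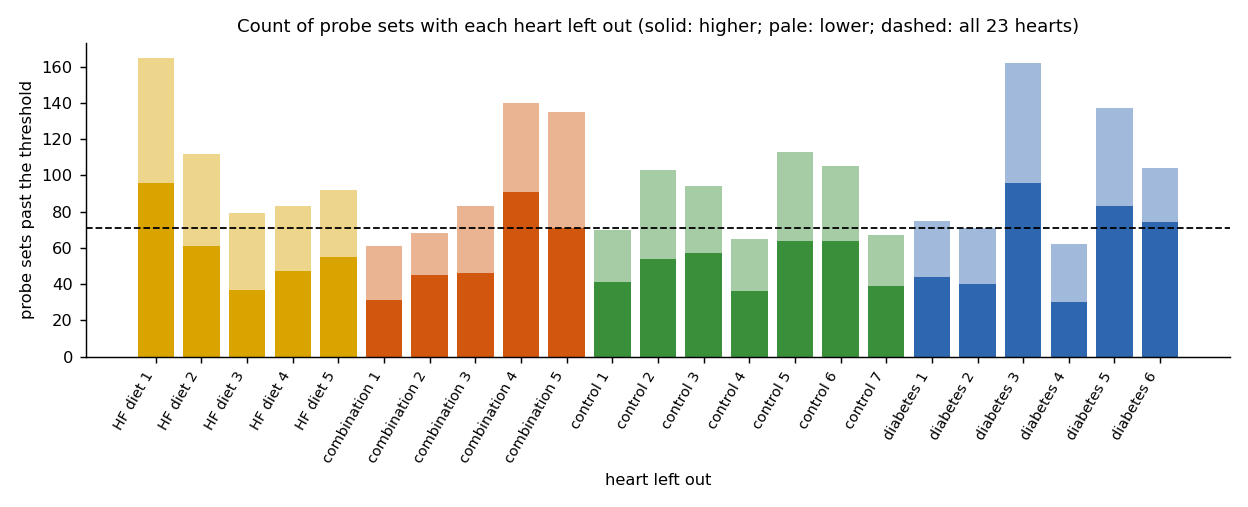
Number of probe sets past the threshold in the comparison of HF dams with standard-diet dams when the heart named on the horizontal axis is left out, higher (solid) and lower (pale), colored by group; the dashed line marks the 71 of all 23 hearts. The count is lowest without combination heart 1, at 61, and highest without HF diet heart 1, at 165.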

How the data were processed

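RNA of each of the 23 hearts went onto its own array, and normalization was done by the authors in GeneSpring GX. The table that the authors deposited holds log2 values of 29170 probe sets, and in every row the median over the 23 hearts is 0, so that level and signal over background cannot be read and dim probe sets were not filtered. The sources used here name neither the normalization algorithm nor the limits of the quality filter nor the log base, which was taken as 2 because group differences match log2 changes. The number of arrays limits the precision.

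Values were used as deposited. Groups came from the labels. All 23 hearts entered limma's lmFit and eBayes with diet and diabetes as terms (prior SD 0.164, 3.52 prior and 20 residual degrees of freedom), with Benjamini-Hochberg adjustment over 29170 probe sets. The differences within each diabetes status and their interaction came from 4 group means. A two-sided exact permutation p for each named gene ran over all 365904 relabellings of diet within diabetes status. Members, the 46 gene lists, tests and alternatives were chosen with earlier results of these data known. Named genes are, among probe sets with 1 symbol past the threshold and of 1 sign at both diabetes statuses, the 15 largest up and down and the 10 smallest p, and the 4 smallest p of each list; others are said to lie outside it. A list is given by counts and its median beside all genes. A named gene with several probe sets is given by the one with the smallest p. In a list it counts if any of them passed, and it enters the median by their mean. Symbols came from the array annotation (1 symbol for 15310 probe sets, several for 323, none for 13537); 15279 matched RefSeq by Entrez identifier. Of all probe sets 198 repeat the values of an earlier one. Promoter windows came from RefSeq GRCr8. The methods' t-test, array weights, quantile normalization, robust eBayes, code stems averaged or as a block, other covariates, the replicate block and each heart left out were tried; leaving out 3 hearts that stood apart, and the replicate block within a diabetes status, were chosen after seeing the data. R 4.3.3, limma 3.58.1, Python 3.11.15, pandas 2.3.3, numpy 2.4.6 and matplotlib 3.10.9 were used.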

Additional observations from a re-analysis of the deposited data

Results flagged for a closer look

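In 140 groups of hearts (35 called genes in 4 groups) 9 values lay far from the rest of their own group. Some hearts held more than 1 of these values. Chance puts about 1 in 20 groups there, and 9 of 140 is not far above that share. HF diet heart 3 stood alone in 3 genes, high in Bex4 at 1.46 and low in Serping1 at -1.33 and standing clear of the other HF diet hearts in Thumpd3 at 0.394. Diabetes heart 5 stood alone at -3.67 in Bmp10 and at -0.803 in Nr1d2, diabetes heart 3 at -1.07 in Gpr22 and diabetes heart 6 at -0.787 in Hapln1. Control heart 1 stood at 0.528 in Dtx4 and control heart 3 at 0.248 in Ramp3. The diet difference of Tstd3 was larger in dams with diabetes than in dams without by 0.60 on the log2 scale (limma interaction, unadjusted p = 0.0395, adjusted p = 0.672), and it did not pass the correction.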

How the results depend on the processing

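At an adjusted p under 0.05 limma called 0 probe sets under every setting run. Against 71 past the threshold, 39 passed when probe sets with 1 gene symbol were fitted alone, and 61 to 165 with each heart left out; the other settings gave 56 to 101. No difference of the 35 called genes changed sign, while that of the lymphocyte gene Cd2, not called at -0.22, turned to 0.0312 without the 3 hearts that stood apart. Of the 35, 20 kept their call with code stems averaged, 18 with array weights, 23 with quantile normalization and 28 in the methods' t-test; the causes were not tested. For HF diet against control (275) the count was 158 in the methods' t-test, 112 with code stems averaged and 152 to 450 with each heart left out, lowest without HF diet heart 3. For combination against diabetes (886) it was 288 in the methods' t-test and 277 to 2143 with each heart left out, lowest without combination heart 1 and highest without diabetes heart 5. With a replicate block the counts were 101 for diet, 406 for HF diet against control and 579 for combination against diabetes, and 22 of the 35 genes kept their call. Whether the replicate numbers pair the hearts was not settled. Residuals of 31 same-number pairs had a median r of -0.0828, from -0.422 to 0.559. In 166 other-number pairs the median was -0.00994, and 7 of 22 hearts correlated best with their own number. With so few hearts in a group such residuals are noisy, so these values cannot tell if a pairing exists.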
